A study of Mus musculus with 16 samples.

Results

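Hoxa5, Hoxa7, Hoxa9, Hoxa10, Meis1, Mecom, Hlf, Cd34 and Mycn are genes best known from hematopoietic stem cells and early progenitors. These 9 genes were taken by name: every noncontrol probe whose gene name on the array equals one of them was used, which gave 12 of the 39429 probes and 9 of the 24335 genes with a symbol. Hoxa9, Mecom and Cd34 had 2 probes each and the other genes had 1.

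RNA was measured in macrophage-dendritic cell progenitors (MDPs) and common dendritic cell progenitors (CDPs) sorted from the bone marrow (BM) of female C57/Bl6 mice. MDPs can still form monocytes, macrophages and dendritic cells, and CDPs are the next stage toward dendritic cells. Tumor-bearing mice had received PyMT-B6 cells, a line made from the MMTV-PyMT model, in which the MMTV promoter, active in mammary epithelium, drives the polyoma middle T oncogene, on the C57/Bl6 background. The cells were placed in the mammary fat and the tumors were grown to 1.5 cm across, and the tumor-free controls were matched for age.

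The 4 groups were thus MDPs and CDPs of tumor-free mice and MDPs and CDPs of tumor-bearing mice, and the labels give no genetic change and no drug for the mice of any group. Each group had 4 samples, numbered 2 to 5 in the labels, and each sample pooled the cells of 2 mice and was hybridised to its own single-color array. The series describes 4 independent experiments, and the tumors all came from 1 cell line. Values are listed in the order of replicates 2 to 5. The surface markers of the mouse MDP and CDP sorts are in a supplement of the study that was not used here. These progenitors are usually told apart by the level of Kit, so Kit may have been part of the sort.

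HOX proteins are DNA-binding proteins with a homeodomain, and the HOXA genes keep early blood cells in an immature, dividing state and are switched off as cells mature. MEIS1 binds DNA together with HOX and PBX proteins and sharpens which sites they take. MECOM and HLF are transcription factors used to mark the most primitive stem cells, CD34 is a sialomucin on the surface of early progenitors, and MYCN is a relative of MYC that is used in stem cells.

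Levels are given as normalized log2 signal, which is the log2 of the scanner's processed signal minus the 75th percentile of that array, so 0 is the level of the 75th percentile. Probes that stood well above the local background on 3 or more of the 4 arrays of any group were tested, which gave 27433 probes of 17256 genes. Of the 12 probes, 9 were tested, and these stand for 7 of the 9 genes. A gene was called changed when limma's adjusted p was under 0.05 over all tested probes and the fold change was above 1.5, and it was called by its tested probe with the highest mean. In sorted bulk samples, fewer cells that express a gene and less RNA per cell cannot be told apart.

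Between 58.8% and 71.5% of probes were well above background on the 16 arrays, and no probe was saturated. Of 9 genes in an MDP and CDP identity list that had a probe, among them Csf1r, Flt3 and Kit, 8 were above background on 3 or 4 of the 4 arrays of each group. Il7r, a lymphoid receptor in that list, was above background on no MDP array. The list's summed level was higher in CDPs, from 5.52 to 5.84 in MDPs and 5.93 to 6.25 in CDPs of tumor-free mice, and from 5.30 to 5.87 against 5.94 to 6.06 in tumor-bearing mice. Not each of its genes was higher in CDPs. From MDPs to CDPs, mean Csf1r (A_52_P602091) went from 3.93 to 4.44 in tumor-free and from 3.80 to 4.23 in tumor-bearing mice. Mean Kit went from 1.67 to -0.92 and from 1.54 to -2.27. Markers of stem cells and multipotent progenitors showed 7, 7, 7 and 6 of 9 genes above background in tumor-free MDPs, tumor-free CDPs, tumor-bearing MDPs and tumor-bearing CDPs, with summed levels of 1.38 to 2.31, 1.60 to 2.49, 1.43 to 2.20 and 2.16 to 2.77. Bright genes weigh most in such a sum, and the list's genes went both ways. In the same group order, mean Ly6a was 0.32, 0.98, 0.62 and 1.55, and mean Gata2 was -2.29, -5.11, -2.73 and -5.29. Slamf1, a marker of long-term stem cells, was above background on none of the 16 arrays, and Procr, another such marker, on no CDP array.

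The step from MDP to CDP lowered Cd34, Hlf and Meis1 in tumor-free mice and Cd34, Hlf, Meis1, Hoxa7 and Hoxa10 in tumor-bearing mice. In tumor-free mice 3 of the 7 tested genes were called lower in CDPs and none higher, where 3.16% of all tested probes were called lower. In tumor-bearing mice 5 of 7 were called lower and none higher, where 3.71% of all tested probes were called lower. The change was below 0 for each of the 7 tested genes in both steps, and the median log2 change was -1.15 without and -1.35 with a tumor. Over all 17256 genes the median was 0.02 and 0.18.

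**Figure D1:**
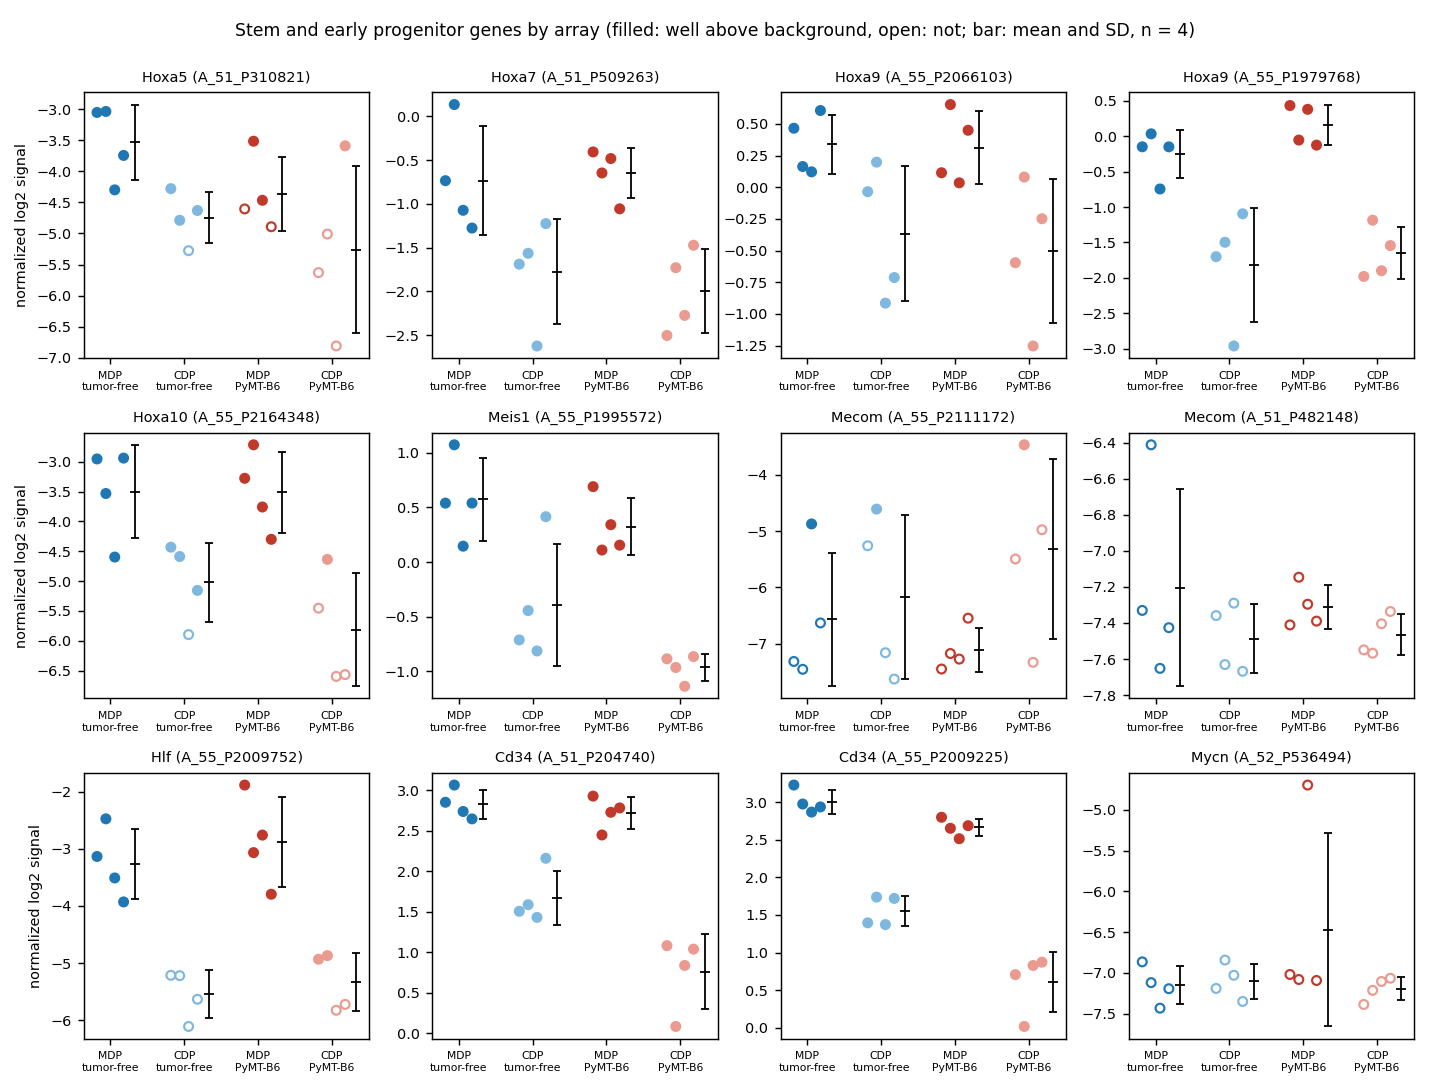
Normalized log2 signal (log2 signal minus the array's 75th percentile, vertical axis) of the 12 probes on the 16 arrays, by group along the horizontal axis, with a bar for the mean and SD of 4 arrays. Filled points are well above background and open points are not. For Cd34 the CDP points lie below the MDP points in each tumor state, and for Mycn each of the 16 points is open.

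**Figure D2:**
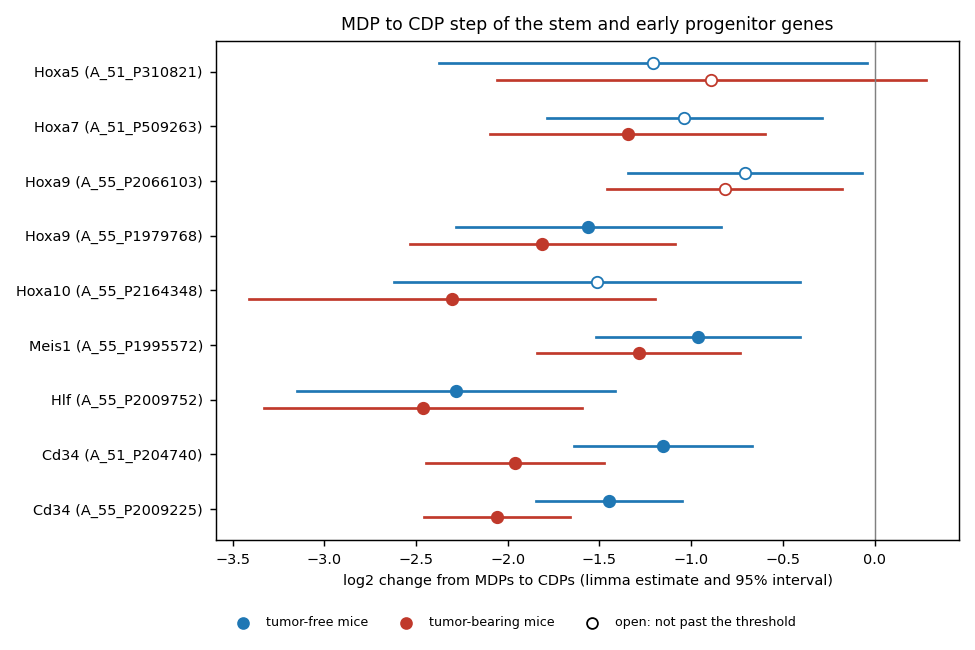
Log2 change from MDPs to CDPs (horizontal axis, limma estimate with its 95% interval) for the 9 tested probes, with tumor-free mice in blue and tumor-bearing mice in red and filled points for changes past the threshold. The estimates run from -2.28 to -0.71 (tumor-free) and from -2.46 to -0.82 (tumor-bearing), and the intervals of the same probe overlap between the steps.

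Cd34, the surface sialomucin, fell in both steps by both of its probes. The probe with the higher mean, A_51_P204740, lies on mm9 chr1:196787392-196787451, plus strand. The other, A_55_P2009225, lies on chr1:196785280-196785339 and is printed here because it was the only probe of the 12 with a called tumor effect:

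Cd34 probe A_55_P2009225: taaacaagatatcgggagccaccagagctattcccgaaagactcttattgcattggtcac

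By the first probe the 4 tumor-free MDP arrays read 2.85, 3.06, 2.74 and 2.65 and the tumor-free CDP arrays 1.51, 1.59, 1.43 and 2.16. In tumor-bearing mice the MDP arrays read 2.93, 2.45, 2.73 and 2.78 and the CDP arrays 1.08, 0.08, 0.84 and 1.04. In both states each CDP array lay below each MDP array, and the tumor-bearing CDPs were the lowest of the 4 groups, with replicate 3 the lowest array. Hlf was the other gene whose groups did not overlap in tumor-free mice, so 2 of 7 genes had each CDP array below each MDP array there, against 6.74% of all tested probes, and 5 of 7 did in tumor-bearing mice, against 7.01%.

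The Cd34 step was a log2 change of -1.15 in tumor-free mice (SE 0.23, 95% interval -1.64 to -0.67, limma adjusted p = 0.00699), a 2.22-fold lower signal. In tumor-bearing mice it was -1.96 (SE 0.23, interval -2.45 to -1.47, limma adjusted p = 0.000138), which is 3.89-fold lower. The second probe gave -1.45 (limma adjusted p = 0.000393) and -2.06 (limma adjusted p = 1.59e-05). The exact two-sided permutation p was 0.0286 for both probes in both steps, the smallest that the 70 relabelings of 4 against 4 arrays can give. Arrays of 1 slide were also compared with each other, since the arrays came on 4 slides: the first probe was lower in CDPs on 4 of 4 slides in tumor-free mice, by log2 differences of -1.42 to -0.90, and on both slides that held MDPs and CDPs of tumor-bearing mice.

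Hlf, a transcription factor of the PAR bZIP family, had the lowest change of the 7 genes in both steps with the scanner's own background subtraction. Its probe, A_55_P2009752, lies on chr11:90200696-90200755, minus strand. In tumor-free mice the MDP arrays read -3.13, -2.47, -3.51 and -3.93 and the CDP arrays -5.21, -5.22, -6.11 and -5.63. The tumor-bearing MDP arrays read -1.88, -3.07, -2.76 and -3.79 and the CDP arrays -4.93, -4.87, -5.82 and -5.72. The groups did not overlap in either state, and the probe was well above background on all 8 MDP arrays, on 0 of 4 tumor-free CDP arrays and on 2 of 4 tumor-bearing CDP arrays. The probe was thus tested through its MDP arrays alone, which favors a lower reading in CDPs. Its tests, and its place in the counts of genes above, are a description for that reason.

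Because no tumor-free CDP array was well above background, that step is a bound: with the scanner's own background subtraction the Hlf signal was at least 3.89-fold higher in MDPs, set against the lowest signal measured well above background on each CDP array or the probe's own, whichever was higher. The fitted log2 change was -2.28 (SE 0.40, limma adjusted p = 0.00352, exact permutation p = 0.0286). In tumor-bearing mice it was -2.46 (SE 0.40, interval -3.33 to -1.59, limma adjusted p = 0.00215, exact permutation p = 0.0286). With the normexp background correction both steps were smaller, at -1.29 (limma adjusted p = 0.00625) in tumor-free and -1.18 (limma adjusted p = 0.0113) in tumor-bearing mice. In tumor-bearing mice Hlf then no longer had the lowest change, since the first Cd34 probe stayed between -2.07 and -1.72 under all alternatives. Of the alternatives run, the tumor-bearing call was lost only with the methods' test in place of limma, at a Benjamini-Hochberg adjusted p of 0.0624.

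Meis1, the HOX cofactor, fell in both steps, and its call was the least steady of those in tumor-free mice. Its probe, A_55_P1995572, lies on chr11:18780695-18780754, minus strand. In tumor-free mice the MDP arrays read 0.54, 1.07, 0.15 and 0.54 and the CDP arrays -0.71, -0.44, -0.81 and 0.42. With tumors, the MDP arrays read 0.69, 0.11, 0.34 and 0.15 and the CDP arrays -0.89, -0.97, -1.14 and -0.87. The tumor-free groups overlapped through CDP replicate 5, and the tumor-bearing groups did not overlap.

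The Meis1 change was -0.96 in tumor-free mice (SE 0.26, interval -1.52 to -0.41, limma adjusted p = 0.0399, exact permutation p = 0.0571) and -1.29 in tumor-bearing mice (SE 0.26, interval -1.84 to -0.73, limma adjusted p = 0.00819, exact permutation p = 0.0286). The tumor-free call stayed past the threshold in 7 of the 16 fits that left out 1 array. It was lost without tumor-free MDP replicate 2, 3 or 5, tumor-free CDP replicate 2, 3 or 4, or tumor-bearing CDP replicate 2, 3 or 5, with limma adjusted p from 0.0517 to 0.126. The tumor-bearing call held in all 16.

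Hoxa7 lies in the HOXA cluster between Hoxa6 and Hoxa9, and its probe, A_51_P509263, lies on chr6:52165626-52165685, minus strand. In tumor-free mice the MDP arrays read -0.73, 0.13, -1.07 and -1.28 and the CDP arrays -1.69, -1.56, -2.62 and -1.23. In tumor-bearing mice the MDP arrays read -0.41, -0.65, -0.48 and -1.06 and the CDP arrays -2.50, -1.73, -2.27 and -1.47. Each tumor-bearing CDP array lay below each tumor-bearing MDP array, while in tumor-free mice CDP replicate 5 lay just above MDP replicate 5.

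Hoxa7 fell in tumor-bearing mice by 1.35 on the log2 scale (SE 0.35, limma adjusted p = 0.0312, exact permutation p = 0.0286), a 2.54-fold lower signal. In tumor-free mice its change was -1.04 (SE 0.35, limma adjusted p = 0.106, exact permutation p = 0.0571) and did not pass. The tumor-bearing call was lost when any of MDP replicates 2, 3 and 4 or CDP replicates 2, 3 and 4 of those mice was left out, with limma adjusted p from 0.0516 to 0.103. With the slide as a block in the fit, Hoxa7 passed in tumor-free mice (-1.04, limma adjusted p = 0.0331) and not in tumor-bearing mice (-0.98, limma adjusted p = 0.105).

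Hoxa10 is expressed in early myeloid cells, and its probe, A_55_P2164348, lies on chr6:52181922-52181981, minus strand. In tumor-free mice the MDP arrays read -2.95, -3.53, -4.60 and -2.94 and the CDP arrays -4.43, -4.59, -5.90 and -5.16. The tumor-bearing MDP arrays read -3.28, -2.71, -3.76 and -4.30 and the CDP arrays -5.45, -4.64, -6.60 and -6.57. The tumor-bearing groups did not overlap, the tumor-free groups did through MDP replicate 4, and only 1 of 4 tumor-bearing CDP arrays was well above background.

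Hoxa10 fell in tumor-bearing mice by 2.30 on the log2 scale (SE 0.52, interval -3.41 to -1.20, limma adjusted p = 0.0149, exact permutation p = 0.0286). In tumor-free mice the change was -1.51 (SE 0.52, interval -2.62 to -0.41, limma adjusted p = 0.111, exact permutation p = 0.0857). Without tumor-bearing CDP replicate 5 the tumor-bearing change was -2.05 with a limma adjusted p of 0.0511. With the normexp correction it was -0.83 with a limma adjusted p of 0.119, and the tumor-free change was -0.88.

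Hoxa9, a HOX protein that maintains stem cells and myeloid progenitors, was read by 2 probes that gave different results. Probe A_55_P2066103, on chr6:52175595-52175654, had the higher mean and so stood for the gene. Probe A_55_P1979768 lies on chr6:52174165-52174224, and both are on the minus strand. Only the second is listed on the array for a second transcript of the gene as well. The first is printed because the gene's call rests on it:

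Hoxa9 probe A_55_P2066103: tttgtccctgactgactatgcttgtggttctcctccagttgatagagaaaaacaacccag

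By this probe the tumor-free MDP arrays read 0.47, 0.16, 0.12 and 0.61 and the CDP arrays -0.04, 0.20, -0.91 and -0.71. With tumors, the MDP arrays read 0.11, 0.65, 0.03 and 0.45 and the CDP arrays -0.60, 0.08, -1.25 and -0.25. The groups overlapped in both states, in each through CDP replicate 3. The change was -0.71 in tumor-free mice (SE 0.30, limma adjusted p = 0.227, exact permutation p = 0.0857) and -0.82 in tumor-bearing mice (SE 0.30, limma adjusted p = 0.109, exact permutation p = 0.0571), and neither passed.

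By the second probe the tumor-free MDP arrays read -0.15, 0.03, -0.75 and -0.15 and the CDP arrays -1.70, -1.50, -2.96 and -1.10. In tumor-bearing mice the MDP arrays read 0.43, -0.05, 0.38 and -0.13 and the CDP arrays -1.98, -1.19, -1.90 and -1.54. Each CDP array lay below each MDP array of its state. This probe fell by 1.56 on the log2 scale in tumor-free mice (SE 0.34, limma adjusted p = 0.0123) and by 1.81 in tumor-bearing mice (SE 0.34, limma adjusted p = 0.00509), with an exact permutation p of 0.0286 in each.

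The probes' own difference was also compared between the cells, as the signal of the first minus that of the second on the same array. In tumor-free mice it was 0.59 ± 0.33 (SD, n = 4) in MDPs and 1.45 ± 0.73 in CDPs, and the change of 0.86 had an exact permutation p of 0.114. In tumor-bearing mice it was 0.15 ± 0.57 in MDPs and 1.15 ± 0.34 in CDPs, and the change of 0.99 had an exact permutation p of 0.0571. With the mean of both probes Hoxa9 passed in both steps, at -1.13 (limma adjusted p = 0.0208) and -1.31 (limma adjusted p = 0.00914).

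Hoxa5, a HOXA gene that takes part in myeloid and lymphoid development, was read by A_51_P310821 on chr6:52152049-52152108, minus strand. In tumor-free mice the MDP arrays read -3.05, -3.04, -4.30 and -3.74 and the CDP arrays -4.28, -4.79, -5.28 and -4.63. The tumor-bearing MDP arrays read -4.61, -3.52, -4.47 and -4.89 and the CDP arrays -5.63, -5.01, -6.81 and -3.59. The tumor-free groups overlapped by a narrow margin, and the tumor-bearing CDP arrays ran from below the MDP arrays to near the highest of them. The changes were -1.21 (SE 0.54, limma adjusted p = 0.268) and -0.89 (SE 0.54, limma adjusted p = 0.261), neither past the threshold. With the normexp correction they were -0.90 and -0.21. The probe was well above background on 4, 3, 2 and 1 of 4 arrays in tumor-free MDPs, tumor-free CDPs, tumor-bearing MDPs and tumor-bearing CDPs.

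Mecom, which encodes the zinc-finger protein EVI1 and its longer form, was at or near background. Probe A_55_P2111172, on chr3:30135491-30135550, was well above background on 3 of the 16 arrays, 1 each in tumor-free MDPs (replicate 4, at -4.87), tumor-free CDPs (replicate 3, at -4.61) and tumor-bearing CDPs (replicate 3, at -3.47). All 3 were on slide 4, which held no array of tumor-bearing MDPs, so cell group and slide cannot be told apart here. The other array of slide 4, tumor-bearing CDP replicate 2, read -5.49 and was not well above background. Probe A_51_P482148 lies further along the gene, on chr3:29876185-29876244, and was well above background on 0 of 16 arrays, where it read between -7.67 and -6.41. Mycn, by A_52_P536494 on chr12:12943193-12943252, was likewise well above background on 0 of 16 arrays and read between -7.43 and -4.70. Neither gene was tested, and at the sensitivity of these arrays no difference was detectable. The Mecom probe that gave no signal is printed as the sequence behind that reading:

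Mecom probe A_51_P482148: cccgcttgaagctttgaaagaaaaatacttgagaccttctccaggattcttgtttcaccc

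The promoter stretches of the 9 genes, with those of the untested Mecom and Mycn among them, were read for shared motifs. RefSeq (GRCm38.p6) gave 11 windows of 250 bases before a start for the 9 genes. Those of Hoxa9, Meis1, Hlf and Cd34 are shown because these genes had a probe past the threshold in both steps. They run 5′ to 3′ on the strand of the gene, at chr6:52227371-52227620, chr11:19018970-19019219, chr11:90390918-90391167 and chr1:194938571-194938820, and capitals mark motif matches.

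Hoxa9: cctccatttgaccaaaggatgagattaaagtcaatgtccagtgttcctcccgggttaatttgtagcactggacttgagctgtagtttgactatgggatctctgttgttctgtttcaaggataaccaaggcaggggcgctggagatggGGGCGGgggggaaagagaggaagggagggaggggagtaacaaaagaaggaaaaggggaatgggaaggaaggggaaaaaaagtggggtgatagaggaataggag

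Meis1: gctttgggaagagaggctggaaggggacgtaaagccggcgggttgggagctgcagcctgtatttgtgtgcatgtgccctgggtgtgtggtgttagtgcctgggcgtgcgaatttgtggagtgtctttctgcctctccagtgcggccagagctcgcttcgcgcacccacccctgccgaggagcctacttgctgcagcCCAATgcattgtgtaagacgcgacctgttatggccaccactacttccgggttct

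Hlf: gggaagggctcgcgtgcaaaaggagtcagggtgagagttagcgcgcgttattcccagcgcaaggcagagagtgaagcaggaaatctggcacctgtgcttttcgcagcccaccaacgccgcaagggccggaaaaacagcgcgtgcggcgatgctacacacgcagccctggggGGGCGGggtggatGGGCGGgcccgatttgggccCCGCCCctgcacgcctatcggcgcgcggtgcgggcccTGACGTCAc

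Cd34: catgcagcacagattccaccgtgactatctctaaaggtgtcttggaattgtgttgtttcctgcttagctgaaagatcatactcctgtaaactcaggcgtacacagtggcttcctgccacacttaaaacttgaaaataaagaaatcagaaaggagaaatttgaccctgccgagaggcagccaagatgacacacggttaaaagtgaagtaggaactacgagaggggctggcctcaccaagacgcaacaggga

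Both strands were searched, and no motif searched overlaps another in these 4 windows. The GC box GGGCGG, in 32.7% of 32841 promoters of this length, was in 5 of the 11 windows, among them Hoxa9 once and Hlf at 3 places. The rest were windows of Hoxa10 and of the untested Mecom and Mycn. The CCAAT box CCAAT, in 33.9% of promoters, was in 4 windows, among them Meis1 at 54 bases before the start. The cAMP response element TGACGTCA, in 1.55% of promoters, was in Hlf alone, 9 bases before the start. The MEIS motif TGACAG was in 15.9% of promoters and here in Mecom alone, and the ETS motif AGGAAGT in 7.69% and here in Hoxa10 alone. The motifs HOX with PBX (TGATTTAT, 0.837% of promoters) and PAR bZIP (TTACGTAA, 0.113%) were in none of the 11. The GATA motif AGATAA, in 9.99% of promoters, was in none of them either, and the Cd34 window held no match for any motif. For MYC the E-box CACGTG was searched, which 6.02% of promoters hold and none of the 11 did. No motif searched was in all of the windows of the genes that fell.

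The next question was whether tumors changed the step. The difference between the steps was called for 0 of the 7 genes by limma, where 0.0146% of all tested probes were called, and 1 of 7, Cd34, had an unadjusted p under 0.05, as did 4.03% of all tested probes. The difference was below 0 for 6 of 7 genes, with a median of -0.31 against 0.14 over all genes. For Cd34 it was -0.81 (95% interval -1.50 to -0.12, limma adjusted p = 0.748) by the first probe and -0.61 (interval -1.18 to -0.05, limma adjusted p = 0.748) by the second. For Hoxa7 it was -0.31 (interval -1.37 to 0.75, limma adjusted p = 0.815) and for Hoxa10 -0.79 (interval -2.35 to 0.78, limma adjusted p = 0.748). The calls that stood in tumor-bearing mice alone, Hoxa7 and Hoxa10, thus had no step that was shown to differ from that in tumor-free mice.

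Tumor-bearing mice were also set against tumor-free mice within each cell. In MDPs limma called 0 of 7 genes, where 0.0656% of tested probes were called, and 0 of 7 had an unadjusted p under 0.05, against 10.4% of all tested probes. The changes ran from -0.84 for Hoxa5 to 0.39 for Hlf with a median of -0.03. By the main probes 0 of 7 genes had each tumor-bearing array below each tumor-free array, where 2.49% of probes did. The second Cd34 probe did, with a change of -0.34 (limma adjusted p = 0.534, exact permutation p = 0.0286).

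In CDPs limma called 0 of 7 genes by the main probes, where 1.80% of tested probes were called, and 2 of 7, Meis1 and Cd34, had an unadjusted p under 0.05, against 13.7% of all tested probes. These same 2 genes had each tumor-bearing array below each tumor-free array, where 5.35% of probes did. For Cd34 the log2 difference was -0.91 (SE 0.23, interval -1.40 to -0.42, limma adjusted p = 0.0599) by its first probe and did not pass. Its second probe read 1.40, 1.74, 1.37 and 1.72 on the tumor-free CDP arrays and 0.71, 0.02, 0.83 and 0.87 on the tumor-bearing ones. That probe passed the threshold at -0.95 (SE 0.19, interval -1.35 to -0.55, limma adjusted p = 0.0213), a 1.93-fold lower signal, and lost the call without tumor-free CDP replicate 3 (limma adjusted p = 0.0692) or 5 (0.0683). With the mean of both probes Cd34 passed at -0.93 (limma adjusted p = 0.0292), and with the slide as a block its first probe passed at -0.79 (limma adjusted p = 0.0474).

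For Meis1 the log2 difference in CDPs of tumor-bearing mice was -0.57 (SE 0.26, interval -1.13 to -0.02, limma adjusted p = 0.341, exact permutation p = 0.0286). On each of the 3 slides that held CDPs of both states, 4 of the 7 genes read lower in tumor-bearing mice by their main probe. These were Cd34 (and by -1.38 to -0.52 with its second probe), Meis1 (-0.48 to -0.15), Hoxa10 (-2.14 to -0.46) and Hoxa9 (-0.46 to -0.21). The second Hoxa9 probe read lower on only 1 of the 3 slides (-0.09 to 1.06), with a log2 difference of 0.16 in CDPs. The share of all tested probes that were lower on each slide was not counted. The genes other than Cd34 and Meis1 did not pass either. By the main probes their difference was -0.80 for Hoxa10 (limma adjusted p = 0.578), -0.52 for Hoxa5 (limma adjusted p = 0.777), -0.22 for Hoxa7, -0.14 for Hoxa9 and 0.21 for Hlf.

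By the main probes 5 of the 7 genes, Cd34, Meis1, Hoxa5, Hoxa9 and Hoxa10, had the same order of group means, from high to low: tumor-free MDPs, tumor-bearing MDPs, tumor-free CDPs and tumor-bearing CDPs. The MDP means of Hoxa10 and Hoxa9 differed by only -0.01 and -0.03. By the second Hoxa9 probe the tumor-bearing mean was the higher one, at 0.16 against -0.25 in MDPs and -1.65 against -1.81 in CDPs. The share of all tested probes with the order above was not counted. In that order the means of Cd34 by its main probe were 2.82 ± 0.18, 2.72 ± 0.20, 1.67 ± 0.33 and 0.76 ± 0.46 (SD, n = 4), and those of Meis1 0.57 ± 0.38, 0.32 ± 0.26, -0.39 ± 0.56 and -0.96 ± 0.12. The MDP means of both genes differed by less than the spread within a group by these probes, while by the second Cd34 probe the MDP means differed by more than their SDs of 0.16 and 0.12, at -0.34 for tumor-bearing minus tumor-free mice. Hoxa7 and Hlf instead had their highest mean in tumor-bearing MDPs, at -0.65 ± 0.29 and -2.88 ± 0.79, above tumor-free MDPs by less than the spread. The 2 CDP means of Hoxa7 (-1.77 ± 0.60 and -1.99 ± 0.48), of Hlf (-5.54 ± 0.42 and -5.34 ± 0.51) and of the first Hoxa9 probe (-0.37 ± 0.53 and -0.50 ± 0.57) likewise lay within their spread.

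How much of the variation followed the groups differed from gene to gene. The 4 groups took up 90.5% and 95.3% of the variance over the 16 arrays for the 2 Cd34 probes, 84.1% for Hlf, 78.3% for Meis1 and 44.0% for Hoxa5. The slides took up 29.4% and 18.4% for Cd34, 42.2% for Meis1 and 40.1% for Hoxa7. Each share was taken alone, and the slides did not hold the groups evenly, so the shares of groups and slides overlap. Slide 1 held 2 arrays of tumor-bearing MDPs and 0 of tumor-bearing CDPs, and slide 4 held 0 and 2. On the same arrays, Meis1 and Cd34 correlated with r = 0.93 over the 16 arrays and 0.63 within groups, and Hoxa7 and Meis1 with 0.87 and 0.70. Hoxa10 and Cd34 correlated with 0.72 over the arrays and -0.39 within groups, so the sign was not the same among arrays of a group. These values share arrays and their scaling and are given as a description.

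Genes whose pattern over the 16 arrays was most like that of a member were found among 13295 genes above background on every array. Cd34 was closest to Adgrg1 (r = 0.985), an adhesion receptor of early progenitors, Msi2 (0.960), an RNA-binding protein, and Cd27 (0.954), a receptor of the TNF family. Meis1 was closest to Abhd4 (0.954), Msi2 (0.951) and Armcx2 (0.948). Hoxa7 was closest to Slc25a37 (0.921), an iron carrier of the mitochondrion, Fam216a (0.911) and Myb (0.911), a progenitor transcription factor. The first Hoxa9 probe was closest to Kcnip3 (0.882), Chdh (0.881) and Prrg4 (0.858).

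Other HOXA genes, the genes that act with HOX proteins and other stem cell genes were counted as lists. For comparison with each list, 627 of all 17256 tested genes were called lower and 559 higher in tumor-free mice. In tumor-bearing mice 720 were called lower and 664 higher. At these shares, 0 called in a list this short is what most genes would give. Of the 10 HOXA genes listed here, 7 were tested, 0 were called in tumor-free mice and 2 were called lower in tumor-bearing mice, which are Hoxa7 and Hoxa10, with median log2 changes of -0.71 and -0.82. Hoxa2, Hoxa4 and Hoxa11 were not tested. Outside the 4 genes described above none passed, and the log2 differences in tumor-free and then tumor-bearing mice were 0.37 and -0.63 for Hoxa3, -0.14 and -0.18 for Hoxa6 and 0.36 and 1.29 for Hoxa13. Of 5 HOXB genes of stem cells 3 were tested and 0 called in either step, with medians of 0.08 and -0.03.

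**Figure D3:**
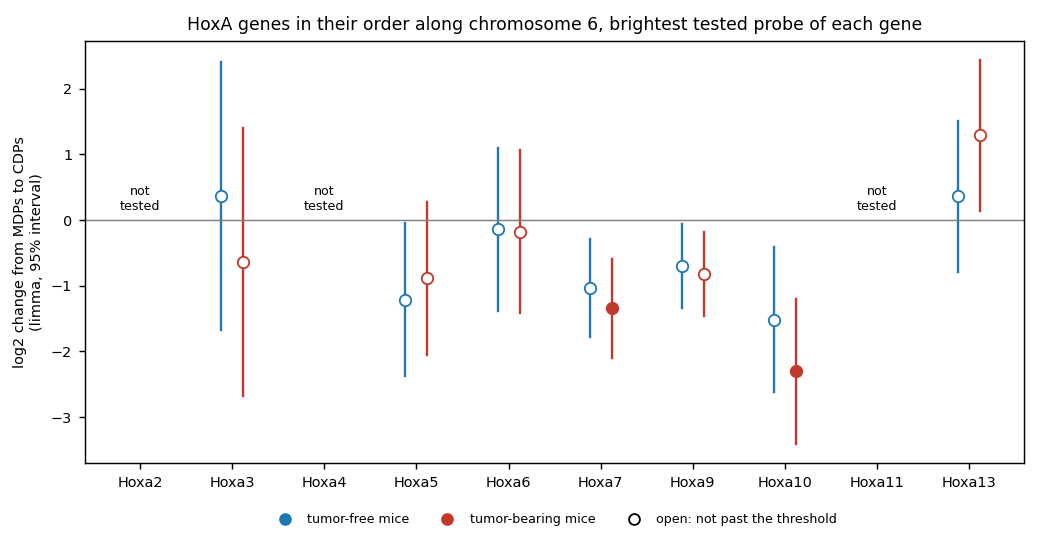
Log2 change from MDPs to CDPs (vertical axis, limma estimate with its 95% interval) for 10 HOXA genes in their order along chromosome 6 (horizontal axis, not to scale), with tumor-free mice in blue and tumor-bearing mice in red. Filled points passed the threshold, which only Hoxa7 and Hoxa10 in tumor-bearing mice did. Hoxa5, Hoxa7, Hoxa9 and Hoxa10 lie below 0 in both steps, and so does Hoxa6, by less (-0.14 and -0.18).

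Of 8 other HOX cofactors of the PBX, MEIS and PREP families, 6 were tested and 0 called in either step, with medians of 0.12 and 0.31. Of 10 genes of the MLL complex and its partners, which keep HOXA genes active, 10 were tested and 0 called, with medians of -0.19 and -0.16. Kmt2a, which encodes MLL1 itself, had log2 differences of 0.07 and -0.05. The 3 PAR bZIP relatives of Hlf were tested and 0 called, with medians of 0.13 and 0.29.

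Of 16 other stem cell transcription factors, 14 were tested and 3 were called lower in each step, with medians of -0.32 and -0.55. Over all 17256 genes, 627 and 720 were called lower in the tumor-free and tumor-bearing steps. In tumor-free mice these were Gata2 (-2.82, limma adjusted p = 0.0361), Tal1 (-1.28, limma adjusted p = 0.00242) and Myb (-0.92, limma adjusted p = 0.00467). In tumor-bearing mice they were Erg (-5.08, SE 0.63, limma adjusted p = 0.000227), Myb (-1.30, limma adjusted p = 0.000376) and Tal1 (-0.95, limma adjusted p = 0.0152). Erg, an ETS factor of stem cells, was well above background on 2 of 4 tumor-bearing CDP arrays. It was also the gene of this list called in CDPs between tumor states, at -1.69 ± 0.86 without and -5.34 ± 1.60 with a tumor (SD, n = 4, limma adjusted p = 0.0113).

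In the MYC network 9 of the 10 genes with a probe were tested, and Myc was called lower in both steps (-1.65, limma adjusted p = 0.00323, and -1.44, limma adjusted p = 0.00819). Mxd3, which competes with MYC for its partner MAX, was called higher in both (1.37, limma adjusted p = 0.00242, and 1.50, limma adjusted p = 0.00133). The list's medians were -0.04 and 0.05.

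**Figure D4:**
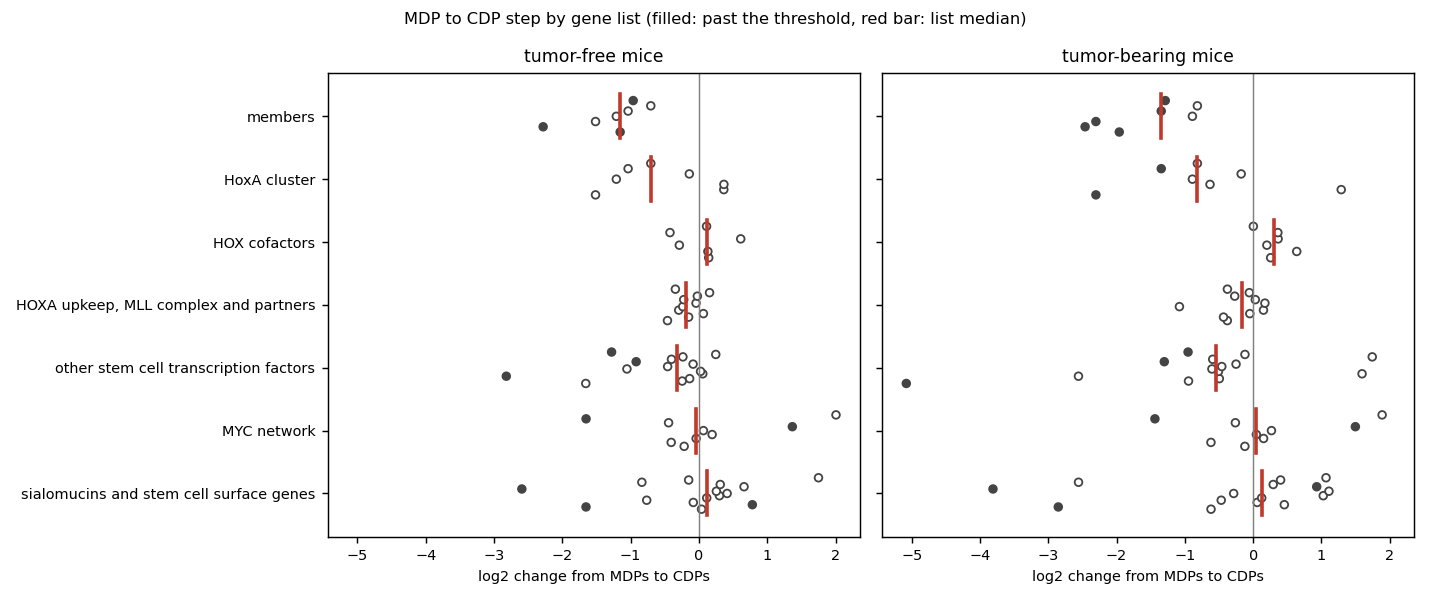
Log2 change from MDPs to CDPs (horizontal axis) of each tested gene of 7 lists (rows), in tumor-free mice on the left and tumor-bearing mice on the right. A point is 1 gene by its main probe, filled where it passed the threshold, and the red bar is the list's median, which for the 9 named genes is -1.15 and -1.35.

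Of 17 other sialomucins and stem cell surface genes, 15 were tested, with medians of 0.11 and 0.12. Kit, the stem cell factor receptor, was called lower in both steps (-2.59, limma adjusted p = 3.59e-06, and -3.81, limma adjusted p = 1.06e-07), and so was Cd27 (-1.65, limma adjusted p = 0.00124, and -2.85, limma adjusted p = 1.4e-05). Cd48 was called higher in tumor-free mice (0.78, limma adjusted p = 0.00531) and Ly6a, which encodes Sca-1, in tumor-bearing mice (0.93, limma adjusted p = 0.00873). Within CDPs, tumor-bearing mice had lower Kit (-1.34, limma adjusted p = 0.00427) and Cd27 (-1.67, limma adjusted p = 0.00504). Cd34 was lower in that comparison by both probes but passed the threshold by its second probe only. Kit read 1.67 ± 0.11 and -0.92 ± 0.29 in MDPs and CDPs of tumor-free mice and 1.54 ± 0.17 and -2.27 ± 0.39 in those of tumor-bearing mice (SD, n = 4). The part of the sort, and of the Kit level it left in each group, in the changes of the 9 genes was not tested.

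Some marker lists of other cells also moved with the step. The lists of erythroid cells, megakaryocytes, B cells, T and NK cells, mammary tumor cells, and stroma and endothelium overlapped between MDPs and CDPs in both states. In tumor-free mice the ranges of the neutrophil list and of the monocyte and macrophage list overlapped as well. The summed level of 7 mast cell and basophil genes ran from 1.73 to 2.25 in MDPs and -0.34 to 1.64 in CDPs of tumor-free mice, and from 2.15 to 2.40 and 1.55 to 1.98 in those of tumor-bearing mice, while 3 of the 7 were above background on 3 or 4 of the 4 arrays of each group and Ms4a2, Gzmb and Cma1 were on no array. The summed level of 9 neutrophil genes ran from 0.51 to 1.79 and 1.34 to 3.11 in tumor-free MDPs and CDPs, and from 1.80 to 2.61 and 2.97 to 3.71 in tumor-bearing MDPs and CDPs, with 8 of the 9 above background in each group and Mmp9 on no array. The summed level of 9 monocyte and macrophage genes ran from 5.17 to 5.57 and 5.51 to 5.88 in tumor-free MDPs and CDPs, and from 5.27 to 5.57 and 5.70 to 5.89 in tumor-bearing MDPs and CDPs, with 8 or 9 of the 9 above background in each group. The part of such cells in the changes of the 9 genes was not tested.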

How the data were processed

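RNA of sorted MDPs and CDPs was labeled with Cy5 and hybridised to 16 single-color Agilent arrays, 4 per group, on 4 slides. The deposited scanner files hold spot intensity, which per the file headers was background-subtracted by Agilent Feature Extraction. Their processed red signal was used. The authors also deposited a table of log2 values of the same arrays, used as an alternative. Its 16 columns were each nearest to their own array. How it was centred was not established, so no level was taken from it.

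Outlier spots (182 to 289 per array) and controls were left out, spots of a probe were averaged, and the log2 signal, less the 75th percentile of its array, was analyzed with limma 3.58.1 in R 4.3.3 as 4 group means, with Benjamini-Hochberg adjustment over 27433 probes. The thresholds (adjusted p under 0.05, fold above 1.5) are those of the study's methods. Intervals are at 95%. The fit was tested on simulated data. The number of arrays, 4 per group, limits the precision.

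The 9 genes and all lists were chosen with earlier results of these data known. By rule, each of the 9 genes was named by every probe, at most 3 genes of any other list by the largest change among called genes (the brightest if none was called), and 3 genes by likeness to each gene above background on 16 arrays. Hoxa7 and Hoxa10 were named again as members of the HOXA list. Hoxa3, Hoxa6 and Hoxa13 were given beyond that rule, after their values were seen. An item of the HOXA list is not reported here and was left out of its counts and medians.

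Samples with the same replicate number did not deviate together in every pair (correlations of deviations from -0.634 to 0.481), so the numbers were not taken as pairs. Alternatives were background correction, scaling, filters, the slide and the replicate number as blocks, the groups in the fit, the methods' test, the call rule, the probe per gene and leaving out each array. Promoters and their motifs came from RefSeq tables of GRCm38.p6, while probe positions are mm9 as on the array, and the builds were not mixed.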

Additional observations from a re-analysis of the deposited data

Results flagged for a closer look

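Of 48 sets of 4 arrays checked (12 probes in 4 groups), 1 held an array far from the other 3, where chance gives about 1 in 20. Mycn read -4.70 on tumor-bearing MDP replicate 4, and the nearest of the other 3 arrays read -7.02, a gap of 0.969 of the group's range. The probe was not well above background on that array or on any other, so no level of Mycn is read from it.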

How the results depend on the processing

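The 9 tested probes had a step below 0 in all 520 values recomputed under the alternatives. The number of genes called was 3 for the tumor-free step, 5 for the tumor-bearing step and 0 for the difference of the steps and for both tumor effects. Using only probes above background on all 16 arrays left 4 genes, of which 3 were called in the tumor-bearing step and 1 for the tumor effect in CDPs. The methods' t-test, at its own p and with no adjustment, called 5 in the tumor-free step and 1 for the tumor effect in CDPs, and after Benjamini-Hochberg adjustment it called 2 in the tumor-bearing step. The slide as a block and the mean of the probes of a gene each called 1, Cd34, for the tumor effect in CDPs. Leaving out 1 array at a time gave 2 to 3 genes in the tumor-free step, 4 to 5 in the tumor-bearing step, and 0 to 0 for the difference and for both tumor effects.

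The replicate number as a block gave 3 and 5 genes in the steps and 0 in the other comparisons. Under this block Hoxa10 passed in tumor-free mice (limma adjusted p = 0.0326) and Meis1 did not (limma adjusted p = 0.0609), and it changed no other call. The numbers did not pair the samples.

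With only the compared groups in the fit, the tumor-free step of Meis1 (limma adjusted p = 0.154) and of the second Hoxa9 probe (0.0693), the tumor-bearing step of Hoxa10 (0.0588) and the tumor effect on the second Cd34 probe in CDPs (0.134) did not pass. Without a filter on dim probes Meis1 in tumor-free mice had a limma adjusted p of 0.0515. The causes were not tested. Over all probes the median log2 change was 0.02 and 0.19 in the steps, within 0.01 of 0 after quantile normalization and -0.11 and 0.12 with normexp. Hoxa5, Hoxa10 and Hlf lay near background in CDPs, which limits the size of their changes, and Mecom and Mycn could not be compared.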
